A study of Arabidopsis thaliana with 12 samples.

Results

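The genes described here are 10 genes of gibberellin metabolism and perception in leaves of Arabidopsis thaliana Col-0 plants, of 32833 genes in the table. They were chosen by locus code, with earlier results of these data known: the synthesis genes GA20ox1 (AT4G25420), GA20ox2 (AT5G51810) and GA3ox1 (AT1G15550), the inactivation genes GA2ox1 (AT1G78440), GA2ox2 (AT1G30040) and GA2ox6 (AT1G02400), the receptor genes GID1A (AT3G05120), GID1B (AT3G63010) and GID1C (AT5G27320), and the DELLA gene RGA (AT2G01570). Plants 3.5 to 4 weeks old, raised at a relative humidity of 60%, stood for 1 h at 22 °C, in chambers with 12 h of light a day, set to 40 to 45% (low), 55 to 60% (moderate) or 95% (high) relative humidity. All were wild type, and each condition has 4 libraries that the labels call biological replicates. The p-values weigh each difference against the spread between these libraries. No label tells whether 1 plant or a pool made each library, so whether that spread is one between single plants is unknown. A chamber cannot be told apart from its humidity. The comparisons ask which transcripts differ in nearly saturated air and in drier air, each set against the humidity near which the plants grew.

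Gibberellins are growth hormones that promote leaf expansion, stem elongation and germination. GA20ox and GA3ox enzymes carry out the last steps towards the active hormone, and GA2ox enzymes inactivate it. The active hormone binds a GID1 receptor, the complex captures DELLA proteins, and the F-box protein SLY1 marks them for destruction, which releases the growth genes that DELLA proteins hold back. The pathway is known for feedback: when gibberellin is short, transcripts of GA20ox, GA3ox and GID1 genes tend to be high, and GA2ox transcripts tend to be low. RNA levels do not show enzyme activity or hormone content, which are not analysed here.

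Values are TPM, an abundance per transcript length scaled to nearly the same total in every library, so levels can be set side by side between genes but carry no sequencing depth. Between 20691 and 20967 genes were above 0 per library. Leaf markers were abundant, with RBCS1A and CAB1 together at 42870 TPM or more in every library, while the 3 root markers summed to at most 0.51 TPM, the 3 shoot meristem markers to at most 0.07 TPM and the 2 seed markers to at most 0.09 TPM. CASP1 (root), WUS and CLV3 (meristem) and AT2S3 (seed) were listed at 0 in every library. Guard cell markers (3 genes) summed to 27.4 to 46.4 TPM at low, 43.6 to 59.5 at moderate and 30.8 to 39.2 at high humidity. Phloem markers (2 genes) summed to 147 to 173.4, 133 to 151 and 171.5 to 202 TPM at low, moderate and high humidity. SUC2 made up most of this sum, with APL at 15.6 to 25.4 TPM. In the same order, flower markers (3 genes) summed to 1.42 to 2.08, 1.85 to 3.76 and 0.42 to 1.38 TPM. AG made up most of this sum, with AP3 at 0.17 TPM or less and PI at 0.19 TPM or less, neither of them tested. At high against moderate humidity the flower marker AG and the guard cell marker FMA fell (log2 fold changes of -1.02 and -0.99), and the phloem marker SUC2 and CAB1 rose (0.39 and 0.48). The guard cell markers KAT1 (-0.16) and MYB60 (-0.40), the phloem marker APL (0.21) and RBCS1A (0.05) were not called in that comparison. CAB1 also rose at low against moderate humidity (0.75, limma adjusted p = 0.0055), where RBCS1A differed by 0.10 (adjusted p = 0.33). At high against low humidity FMA fell (-0.68, adjusted p = 0.0049). KAT1 went the other way without being called (0.30, adjusted p = 0.13), and MYB60 differed by -0.15 (adjusted p = 0.66). The phloem markers went opposite ways without being called, SUC2 by 0.24 (adjusted p = 0.07) and APL by -0.20 (adjusted p = 0.22). CAB1 fell in that comparison (-0.27, adjusted p = 0.046) but passed in 3 of 19 alternatives, and RBCS1A differed by -0.05 (adjusted p = 0.66). The part of these markers in the results was not tested. In whole leaves, fewer cells of a type and less RNA per cell cannot be told apart.

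Of the 10 genes, 9 passed the filter on low values (at least 1 TPM in at least 4 libraries) and were tested. The exception was GA20ox2, a synthesis gene, which was listed at 0 in 10 of 12 libraries, with 0.04 TPM in high humidity replicate 1 and 0.05 TPM in moderate humidity replicate 2. RGA had the highest mean level in all 3 conditions. At moderate humidity it was followed by GA3ox1 at 7.88 ± 2.70 TPM (SD, n = 4), GID1A at 6.84 ± 1.57, GID1C at 6.06 ± 1.33, GA20ox1 at 4.13 ± 1.71, GA2ox6 at 3.72 ± 4.12, GA2ox1 at 3.30 ± 0.541, GID1B at 2.87 ± 1.15 and GA2ox2 at 1.5 ± 1.06. The libraries of each pair of neighbours in that order overlapped, apart from those of RGA and GA3ox1. At low humidity GA3ox1 (15.2 ± 2.90 TPM) stood clear of GID1A (6.05 ± 0.413 TPM), which came next. At high humidity GA20ox1 (0.945 ± 0.434 TPM) and GA2ox1 (0.253 ± 0.119 TPM) had the lowest means of the 9, and their libraries did not overlap.

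**Figure D1:**
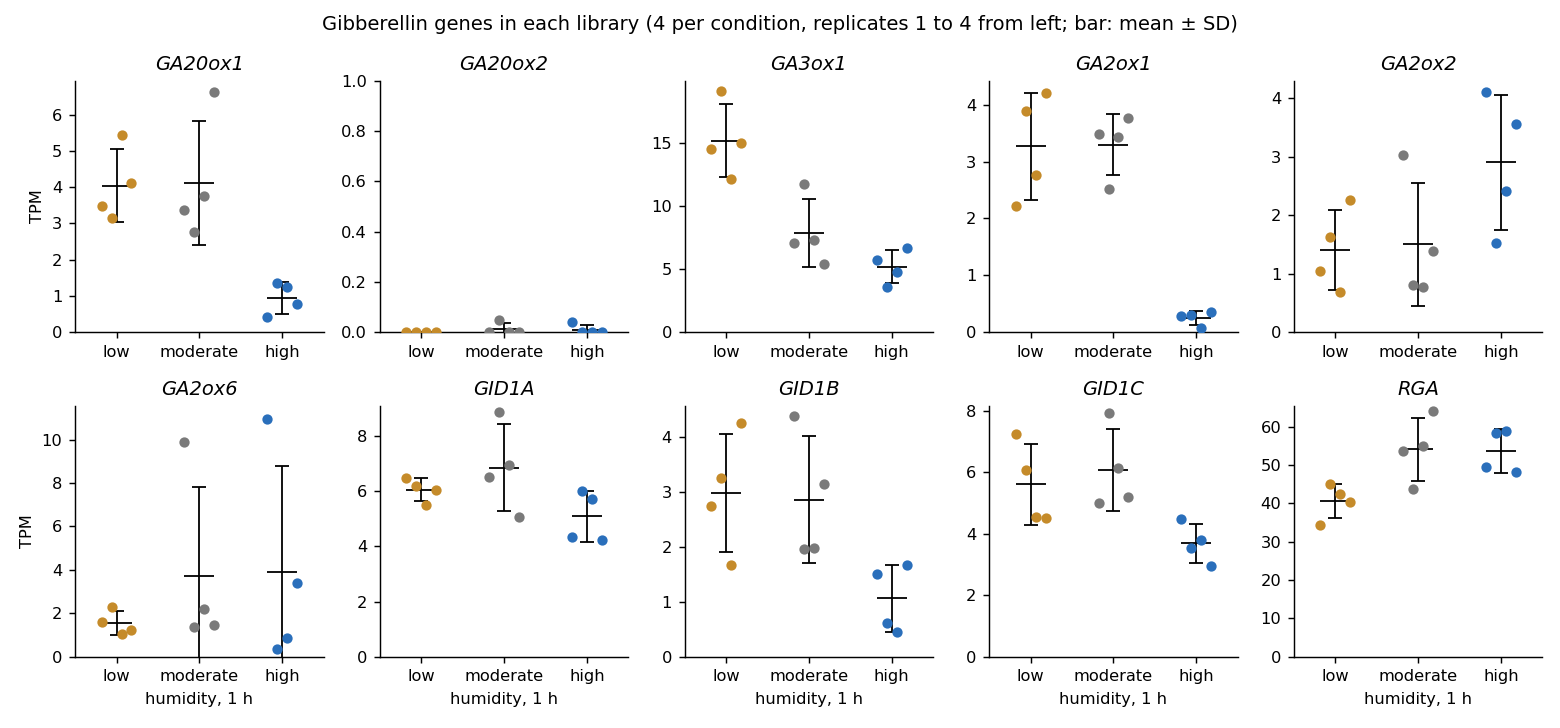
TPM of the 10 genes in each library at low, moderate and high humidity, with replicates 1 to 4 from left to right in each condition and bars for mean ± SD (n = 4), cut off at 0. GA20ox1 and GA2ox1 at high humidity lie below all other libraries, GA3ox1 is highest in the 4 low humidity libraries, and GA2ox6 has 1 high library in each of the moderate and high conditions.

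High against moderate humidity gave lower transcripts of a synthesis enzyme, an inactivating enzyme and 2 receptors. GA2ox1 was 13.1-fold lower in mean TPM at high than at moderate humidity, GA20ox1 4.37-fold, GID1B 2.69-fold and GID1C 1.64-fold. RGA averaged 53.7 ± 5.71 TPM at high and 54.1 ± 8.26 TPM at moderate humidity (SD, n = 4). Of the 9 tested genes, 4 fell and none rose past an adjusted p of 0.05 (limma, Benjamini-Hochberg adjustment over 17368 genes), while 7 had an unadjusted p under 0.05, as did 54.0% of all tested genes. Among all tested genes 34.2% fell and 11.4% rose, and a share of 44.4% of so few genes is near that background. The libraries of the same 4 genes did not overlap, as held in this direction for 34.9% of all tested genes. The median log2 fold change was -0.50 over the 9 genes and -0.22 over all tested genes, a shift that median-of-ratios scaling takes to -0.02. After that scaling 2 of the 9 genes fell, against 15.0% of all tested genes, and none rose, against 18.5%.

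GA20ox1 encodes an enzyme that makes precursors of the active hormone and is known for its role in stem elongation. It was at 0.41, 1.35, 1.24 and 0.78 TPM in high humidity replicates 1 to 4, against 3.36, 2.76, 3.76 and 6.62 TPM in moderate humidity replicates. Every high humidity library lay below every moderate one. The log2 fold change was -1.37 (SE 0.23, adjusted p = 4.7e-04), and -1.22 after the scaling (adjusted p = 0.0023).

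GA3ox1 encodes the enzyme of the last step to active hormone. Its high humidity libraries held 5.72, 3.56, 4.80 and 6.66 TPM, against 7.08, 11.7, 7.33 and 5.38 TPM at moderate humidity. The ranges overlapped in 1 moderate library, replicate 4, and the log2 fold change of -0.50 (SE 0.21) did not pass the threshold (adjusted p = 0.067). Without moderate humidity replicate 4 it was -0.64 (adjusted p = 0.029), without high humidity replicate 4 it was -0.61 (adjusted p = 0.045), and after median-of-ratios scaling -0.29 (adjusted p = 0.31).

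The 3 GA2ox genes encode enzymes of hormone inactivation, and 1 of them fell. GA2ox1 was at 0.28, 0.30, 0.08 and 0.35 TPM at high humidity, against 3.48, 2.52, 3.43 and 3.77 TPM at moderate humidity, with no overlap. Its log2 fold change was -1.78 (SE 0.17, adjusted p = 4.6e-06), or -1.65 after median-of-ratios scaling (adjusted p = 3.6e-05). No other of the 9 genes had a smaller adjusted p in this comparison. Because 1 TPM is added before the logarithm, the log2 fold change understates the difference in TPM. With 0.1 TPM added instead, it was -3.34.

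GA2ox2 had 4.11, 1.52, 2.42 and 3.56 TPM at high humidity, against 3.03, 0.80, 0.78 and 1.39 TPM at moderate humidity. Its ranges overlapped through moderate humidity replicate 1, and a log2 fold change of 0.68 (SE 0.30) missed the threshold (adjusted p = 0.080), as did 0.82 after median-of-ratios scaling (adjusted p = 0.063). Without that library it was 0.93 (adjusted p = 0.015), and without high humidity replicate 2 it was 0.87 (adjusted p = 0.037). GA2ox6 had 11.0, 0.37, 0.86 and 3.40 TPM at high and 9.87, 1.36, 2.20 and 1.45 TPM at moderate humidity. A single library, replicate 1, stood far above the others in each of the conditions, and the log2 fold change was -0.15 (SE 0.68, adjusted p = 0.87), turning to 0.0062 after median-of-ratios scaling and to 0.36 without moderate humidity replicate 1.

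The make-up of the summed GA2ox transcripts differed between the settings, which was not tested. The sum of the 3 genes was 7.05 ± 5.95 TPM at high and 8.52 ± 5.31 TPM at moderate humidity (SD, n = 4). GA2ox1 made up 5.67% ± 5.50 of this sum at high humidity, against 46.4% ± 16.9 at moderate humidity. GA2ox2 made up 54.2% ± 21.1 at high and 17.2% ± 3.73 at moderate humidity. GA2ox3 (AT2G34555), another gene of this family that is not among the 10, was at 0.71, 0.36, 0.50 and 0.36 TPM at high humidity, against 0.06 TPM in 1 moderate library and listed at 0 in the other 3. It was below the filter; with no filter on low values its adjusted p was 1.4e-04 (limma), with a log2 fold change of 0.54 (SE 0.07).

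The 3 GID1 genes encode the soluble gibberellin receptors. GID1B was at 1.5, 0.62, 0.46 and 1.68 TPM at high humidity, against 4.38, 1.96, 1.98 and 3.14 TPM at moderate humidity, with no overlap (log2 fold change -0.91, SE 0.26, adjusted p = 0.014). GID1C had 4.48, 3.52, 3.81 and 2.94 TPM at high and 5.01, 7.91, 6.13 and 5.20 TPM at moderate humidity, again with no overlap (log2 fold change -0.58, SE 0.17, adjusted p = 0.013). After median-of-ratios scaling both fell short of the threshold, GID1B with -0.76 and an adjusted p of 0.054 and GID1C with -0.39 and an adjusted p of 0.053.

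GID1A, the receptor gene with the highest mean TPM in all 3 conditions, had 4.34, 6.01, 5.72 and 4.24 TPM at high humidity, against 6.51, 8.85, 6.95 and 5.05 TPM at moderate humidity. The ranges overlapped, and GID1A did not pass the threshold, with a log2 fold change of -0.36 (SE 0.15, adjusted p = 0.064). It passed the threshold without high humidity replicate 2 (adjusted p = 0.047) or moderate humidity replicate 4 (adjusted p = 0.020), and after median-of-ratios scaling the log2 fold change was -0.15. Summed over the 3 receptors the level was 9.83 ± 0.661 TPM at high and 15.8 ± 2.23 TPM at moderate humidity (SD, n = 4). GID1A made up 51.6% ± 8.06 of the sum at high humidity, against 43.0% ± 4.49 at moderate humidity, and GID1B made up 11.1% ± 6.85 at high and 18.7% ± 8.15 at moderate humidity. The libraries overlapped for both shares.

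**Figure D2:**
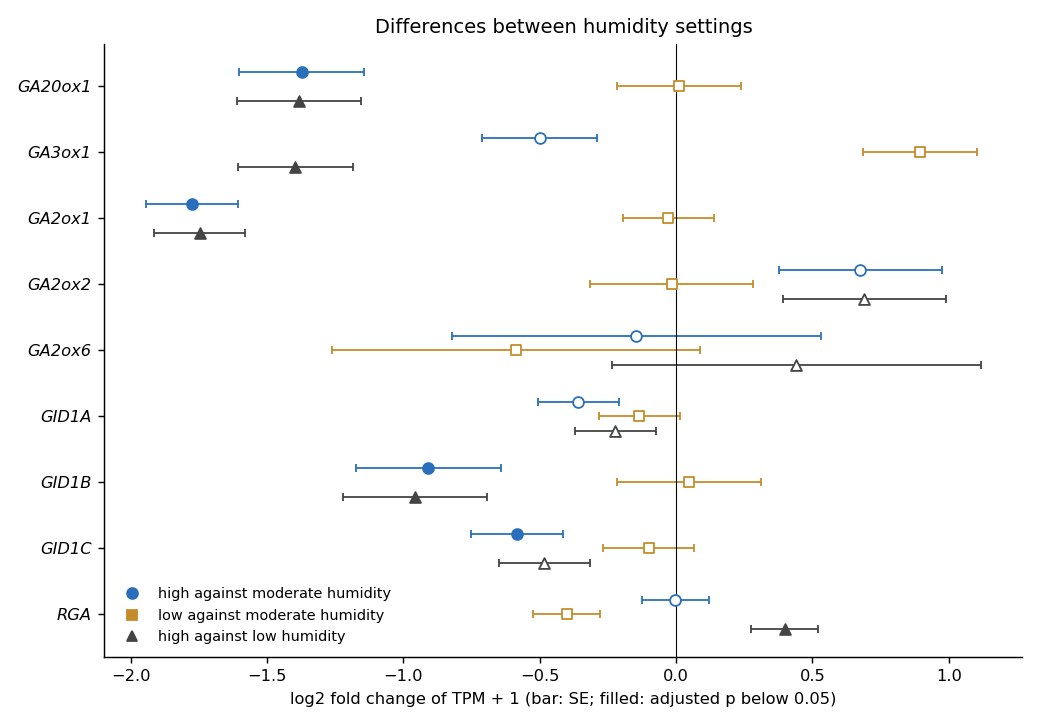
Log2 fold changes of TPM + 1 for the 9 tested genes in the 3 comparisons, with SE bars and filled symbols where the adjusted p was below 0.05. GA20ox1, GA2ox1 and GID1B are negative in both comparisons of high humidity, at -0.91 or lower, and close to 0 at low against moderate humidity, where GA3ox1 reaches 0.89.

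RGA encodes a DELLA protein, a repressor of growth that the receptors target. RGA was at 49.5, 58.4, 58.9 and 48.1 TPM at high humidity, against 53.7, 43.8, 54.9 and 64.0 TPM at moderate humidity. The groups overlapped, and the log2 fold change of -0.0027 (SE 0.12, adjusted p = 0.99) turned to 0.23 after scaling by median of ratios (adjusted p = 0.27). Of the 4 other DELLA genes 1 rose and 1 fell. GAI (AT1G14920), the closest relative of RGA, held 22.5 to 28.1 TPM at high humidity, against 8.13 to 10.8 TPM at moderate humidity (log2 fold change 1.30, SE 0.11, adjusted p = 1.8e-06), and RGL2 (AT3G03450), known for its part in seed germination, 1.44 to 2.91 TPM at high and 4.60 to 5.98 TPM at moderate humidity (log2 fold change -1.09, SE 0.17, adjusted p = 2.5e-04).

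GAI thus made up 29.0% ± 2.29 of the summed TPM of the 5 DELLA genes at high humidity and 13.3% ± 2.48 at moderate humidity, while RGA made up 60.8% ± 3.17 at high and 72.7% ± 3.43 at moderate humidity. RGL1 (AT1G66350) had no overlap, with 5.45 to 6.84 TPM at high and 2.89 to 5.44 TPM at moderate humidity, but its log2 fold change of 0.63 (SE 0.34) did not pass the threshold (adjusted p = 0.15). RGL1 varied most at low humidity, where replicate 4 had 12.2 TPM and the others 2.53 to 4.63 TPM. Without that library RGL1 passed at high against moderate humidity (adjusted p = 0.014), as it did with only the 8 libraries compared (adjusted p = 0.0089). RGL3 (AT5G17490) had 0.03 to 1.5 TPM at high and 0.62 to 2.57 TPM at moderate humidity (log2 fold change -0.55, adjusted p = 0.22).

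**Figure D3:**
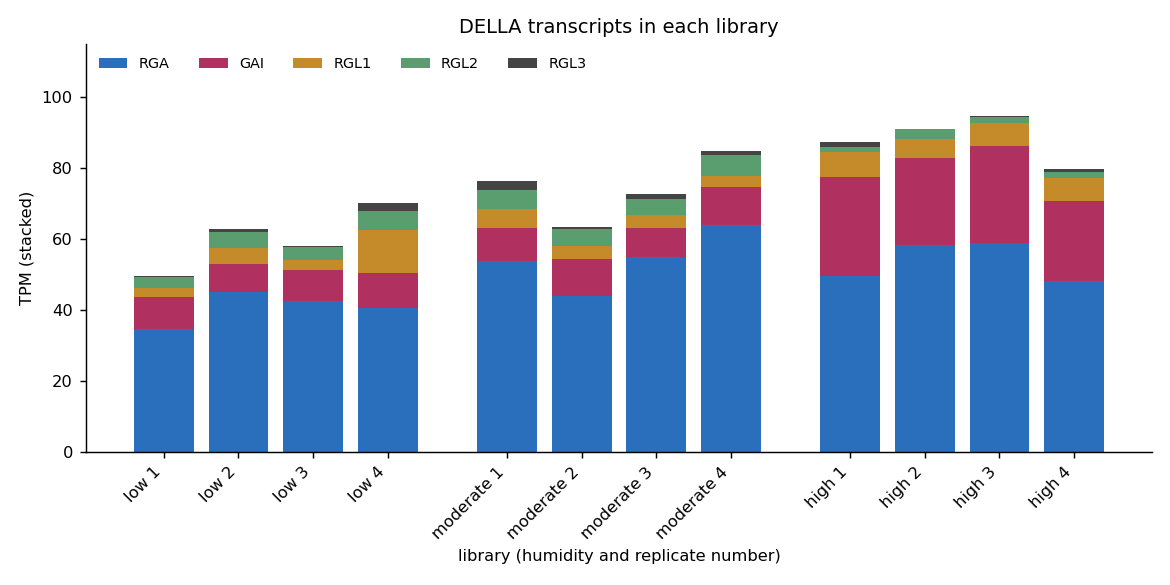
Stacked TPM of the 5 DELLA genes in each library at low, moderate and high humidity. The GAI segment is larger in the 4 high humidity libraries (22.5 to 28.1 TPM) than in the 8 others (7.92 to 10.8 TPM), and RGA is the largest segment in every library.

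A list of 39 other gibberellin genes was drawn up from general knowledge with the 10 genes, and 22 of them were tested. Earlier results of these data were known then, so the list's shares of called genes are not those of a blind choice. At high against moderate humidity 5 of the 22 rose and 9 fell, 22.7% and 40.9% against 11.4% and 34.2% of all tested genes. With median-of-ratios scaling 6 of the 22 rose and 9 fell, against 18.5% and 15.0% of all tested genes. Of 17 genes below the filter, 6 were listed at 0 in every library, and the highest value was 1.32 TPM. Among the synthesis genes upstream of the 10, GA2 (AT1G79460), which encodes the ent-kaurene synthase, GA3 (AT5G25900), the ent-kaurene oxidase, and KAO2 (AT2G32440), an ent-kaurenoic acid oxidase, fell. KAO2 had 10.2 ± 0.741 TPM at high and 19.1 ± 1.95 TPM at moderate humidity (log2 fold change -0.84, SE 0.10, adjusted p = 4.8e-05), and the log2 fold changes of GA2 and GA3 were -0.65 and -0.61. KAO1 (AT1G05160) did not pass the threshold (-0.22, adjusted p = 0.16), and GA1 (AT4G02780), the first enzyme of the pathway, was below the filter at 0.04 to 0.43 TPM.

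Of the 4 listed genes that act on DELLA proteins 3 were tested, and 1 rose and 1 fell. SLY1 (AT4G24210), the F-box gene, rose to 15.0 ± 2.30 TPM at high humidity, against 9.56 ± 1.75 TPM at moderate humidity (log2 fold change 0.60, SE 0.14, adjusted p = 0.0047). SEC (AT3G04240), which encodes an O-GlcNAc transferase that modifies DELLA proteins, fell to 29.0 ± 1.53 TPM at high humidity, against 46.3 ± 6.12 TPM at moderate humidity (-0.65, SE 0.11, adjusted p = 4.9e-04), and SPY (AT3G11540), an O-fucosyltransferase gene, differed by 0.02 (adjusted p = 0.90). SNE (AT5G48170), an F-box gene related to SLY1, was below the filter, with 0.25 to 0.50 TPM at high and 0 to 0.29 TPM at moderate humidity. With no filter on low values its log2 fold change was 0.25 (adjusted p = 0.048).

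XERICO (AT2G04240), a RING-finger gene that DELLA proteins activate, was at 8.78 ± 2.11 TPM at high humidity, against 28.9 ± 5.14 TPM at moderate humidity (-1.62, SE 0.22, adjusted p = 1.3e-04). SCL3 (AT1G50420), a DELLA target gene whose product opposes DELLA proteins, had a log2 fold change of -0.64 and fell as well (adjusted p = 0.0015, SE 0.13). The DELLA partner genes GAF1 (AT3G50700) and IDD1 (AT5G66730) had log2 fold changes of -0.44 (adjusted p = 0.058) and 0.06 (adjusted p = 0.67). GAF1 passed the threshold without moderate humidity replicate 4 (-0.57, adjusted p = 0.022), with no trend and no robust moderation (adjusted p = 0.041) and with a replicate block (adjusted p = 0.048), and with 0.1 TPM added in place of 1 TPM its log2 fold change was -0.88 (adjusted p = 0.051). IDD1 passed after median-of-ratios scaling, with 0.29 (adjusted p = 0.015).

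GASA genes encode small cysteine-rich peptides, several of which respond to gibberellin. GASA1 (AT1G75750) rose most, with 1759, 1827, 1575 and 1503 TPM at high humidity, against 315, 262, 253 and 238 TPM at moderate humidity (log2 fold change 2.64, SE 0.16, adjusted p = 8.7e-08). GASA14 (AT5G14920) and GASA9 (AT1G22690) rose by 1.17 (adjusted p = 4.0e-04) and 0.52 (adjusted p = 0.020), and GASA9 missed the threshold without high humidity replicate 4 or moderate humidity replicates 2 or 3 (adjusted p of 0.059, 0.061 and 0.055). GASA4 (AT5G15230) fell to 23.5 ± 7.04 TPM at high humidity, against 56.5 ± 21.1 TPM at moderate humidity (-1.20, SE 0.25, adjusted p = 0.0025), while GASA6 (AT1G74670) differed by -0.29 (adjusted p = 0.57). NPF3.1 (AT1G68570), a gibberellin transporter gene, fell to 31.0 ± 5.45 TPM at high humidity, against 67.5 ± 8.84 TPM at moderate humidity (-1.11, SE 0.13, adjusted p = 3.0e-05). SWEET13 (AT5G50800), a sugar transporter gene whose product also carries gibberellin, differed by -0.82 (adjusted p = 0.10). It passed in 1 of 19 alternatives, the fit without moderate humidity replicate 2 (-1.12, adjusted p = 0.030). Over the 19 the adjusted p reached 0.26.

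**Figure D4:**
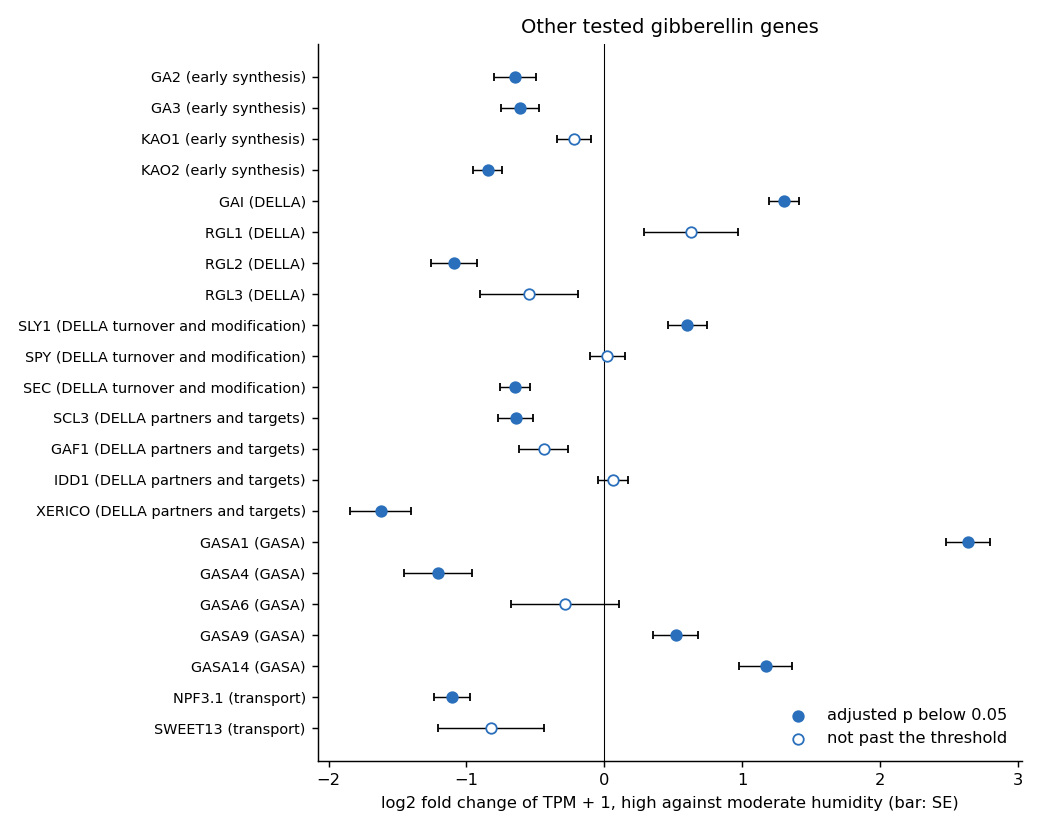
Log2 fold changes of TPM + 1 at high against moderate humidity for the 22 other tested gibberellin genes, with their role in brackets, SE bars, and filled symbols where the adjusted p was below 0.05. Of the DELLA genes GAI lies at 1.30 and RGL2 at -1.09, and of the GASA genes GASA1 lies at 2.64 and GASA4 at -1.20.

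Low against moderate humidity gave no call among the 9 tested genes. None of them passed an adjusted p of 0.05 by limma, 2 had an unadjusted p under 0.05, as did 29.2% of all tested genes, and 0.674% of all tested genes were called. Without low humidity replicate 1, 2.27% of the genes then tested rose and 30.3% fell. Those 2 were GA3ox1 and RGA. GA3ox1 was at 14.5, 19.1, 12.1 and 15.0 TPM at low humidity, against 7.08, 11.7, 7.33 and 5.38 TPM at moderate humidity, a 1.93-fold difference in the means. All 4 low humidity libraries lay above all 4 moderate ones, which held in this direction for 1.73% of the tested genes. The log2 fold change was 0.89 (SE 0.21, adjusted p = 0.063). It passed the threshold in 4 of 19 alternatives, over which the adjusted p reached 0.19 (0.14 with the replicate block). Among the 4 was median-of-ratios scaling (1.07, adjusted p = 0.043), where 0.806% of all tested genes rose. GA3ox1 also passed without low humidity replicate 1 (0.91, adjusted p = 0.018) and without moderate humidity replicate 2 (1.08, adjusted p = 0.032).

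RGA was at 34.5, 44.9, 42.4 and 40.4 TPM at low humidity, against 53.7, 43.8, 54.9 and 64.0 TPM at moderate humidity. The ranges overlapped through moderate humidity replicate 2, and the log2 fold change was -0.40 (SE 0.12, adjusted p = 0.088), or -0.21 after median-of-ratios scaling. GA20ox1 was at 4.05 ± 1.00 TPM at low and 4.13 ± 1.71 TPM at moderate humidity, GA2ox1 at 3.27 ± 0.938 and 3.30 ± 0.541 TPM, and GID1B at 2.99 ± 1.07 and 2.87 ± 1.15 TPM (SD, n = 4). Their log2 fold changes were 0.01, -0.03 and 0.05. GA2ox2, GID1A and GID1C had -0.02, -0.13 and -0.10. After median-of-ratios scaling GA2ox1, GA2ox2, GID1A and GID1C turned to 0.12, 0.091, 0.035 and 0.065, all uncalled. GA2ox6 had -0.59 (SE 0.68, adjusted p = 0.57).

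None of the 22 other tested gibberellin genes was called by limma at low against moderate humidity, and 6 had an unadjusted p under 0.05, a share near the 29.2% of all tested genes. GASA1 was at 480.5, 512, 500.3 and 295 TPM at low humidity and had a log2 fold change of 0.71 (SE 0.16, adjusted p = 0.056). It passed the threshold in 4 of 19 alternatives, over which the adjusted p reached 0.18. Among the 4 were median-of-ratios scaling (0.91, adjusted p = 0.032) and the fits without low humidity replicate 1 (0.67, adjusted p = 0.018) or 4 (0.90, adjusted p = 0.0096). IDD1 was at 21.7 ± 3.24 TPM at low and 30.6 ± 2.16 TPM at moderate humidity (-0.49, SE 0.11, adjusted p = 0.056), or -0.30 after median-of-ratios scaling (adjusted p = 0.12). It passed in 1 of 19 alternatives, the fit without low humidity replicate 1 (-0.58, adjusted p = 0.0044). Without that library 2 of the 22 rose and 4 fell, beside 2.27% and 30.3% of all genes tested without it, so the lower count is not above the background.

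High against low humidity compared the outer settings, and both synthesis genes that were tested fell. Of the 9 genes 4 fell and 1 rose, which is 44.4% and 11.1%, against 11.3% and 12.4% of all tested genes. Libraries did not overlap for 4 lower genes and 1 higher gene, against 13.7% and 12.6% of all tested genes, and after median-of-ratios scaling 5 fell and none rose, against 11.6% and 15.0%. GA3ox1 averaged 5.19 ± 1.32 TPM in high humidity libraries and 15.2 ± 2.90 TPM in low humidity ones, 2.93-fold lower, with no overlap between libraries (log2 fold change -1.40, SE 0.21, limma adjusted p = 2.7e-04). GA20ox1 was 4.28-fold lower at high humidity (-1.38, SE 0.23, adjusted p = 5.3e-04) and GA2ox1 13.0-fold lower (-1.75, SE 0.17, adjusted p = 4.7e-06), both with no overlap. Both comparisons of high humidity share the high humidity libraries, so they are not independent of each other.

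GID1B was 2.80-fold lower in mean TPM at high than at low humidity, although high humidity replicate 4 and low humidity replicate 3 were both at 1.68 TPM (-0.96, SE 0.26, adjusted p = 0.018). It missed the threshold without high humidity replicates 2 or 3 or low humidity replicate 4 (adjusted p of 0.053, 0.059 and 0.054). GID1C did not overlap, with 2.94 to 4.48 TPM at high and 4.52 to 7.25 TPM at low humidity, and just missed the threshold (-0.48, SE 0.17, adjusted p = 0.052). It passed in 7 of 19 alternatives, over which the adjusted p reached 0.14. Among the 7 was median-of-ratios scaling (-0.45, adjusted p = 0.033). GID1C also passed without high humidity replicate 1, low humidity replicates 3 or 4, or moderate humidity replicate 2. The adjusted p of these fits were 0.045, 0.041, 0.040 and 0.036. For GID1A the log2 fold change was -0.22 (adjusted p = 0.32).

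RGA rose to 48.1 to 58.9 TPM at high humidity, against 34.5 to 44.9 TPM at low humidity (0.40, SE 0.12, adjusted p = 0.030). It missed the threshold under median-of-ratios scaling (0.44, adjusted p = 0.052) and without high humidity replicates 2 or 3 or low humidity replicates 1 or 4 (adjusted p of 0.082, 0.092, 0.074 and 0.058). GA2ox2 and GA2ox6 had log2 fold changes of 0.69 (SE 0.30, adjusted p = 0.12) and 0.44 (SE 0.68, adjusted p = 0.70).

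Among the 22 other tested genes, from a list chosen with earlier results known, 6 rose and 8 fell at high against low humidity. These are 27.3% and 36.4%, against 12.4% and 11.3% of all tested genes. Those that rose were GAI (1.42), SLY1 (0.60), IDD1 (0.55), GASA1 (1.93), GASA9 (0.71) and GASA14 (0.73), as log2 fold changes. Those that fell were XERICO (-1.84), GASA4 (-1.27), NPF3.1 (-1.07), RGL2 (-0.85), SCL3 (-0.76), GAF1 (-0.63), SEC (-0.57) and KAO2 (-0.53). GAF1 was the least firm of them (adjusted p = 0.020). It missed the threshold without high humidity replicate 4 or low humidity replicates 1 or 2 (adjusted p of 0.055, 0.052 and 0.057). Of the upstream synthesis genes, GA2 (-0.25, adjusted p = 0.27), GA3 (-0.24, adjusted p = 0.25) and KAO1 (-0.11, adjusted p = 0.57) were not called.

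Across the 3 settings the 9 genes fell into different orders. GA3ox1 was highest at low, then moderate, then high humidity, and only the moderate and high libraries overlapped. GA20ox1, GA2ox1, GID1B and GID1C had similar levels at low and moderate humidity and lower ones at high humidity. RGA was lowest at low humidity, with moderate and high humidity within each other's spread. GA2ox2 was highest at high humidity, with overlapping libraries throughout, and GA2ox6 and GID1A overlapped between all pairs of settings.

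Single libraries also deviated from the mean of their condition in a way that several of the genes shared. After each condition's mean was taken away, log2 values of GA2ox2 and GID1B had a Pearson r of 0.92 over the 12 libraries, although their condition means differ in opposite directions between high and moderate humidity and r over the values themselves was -0.01. GA2ox2 and GA2ox6 had an r of 0.78 in these deviations, GA2ox2 and RGL3 one of 0.90, and GID1B and RGL3 one of 0.84. Within their conditions, GA2ox2 and GID1B were both highest in low humidity replicate 4, in moderate humidity replicate 1, and in high humidity replicates 1 and 4. GA20ox1 and GA3ox1 deviated in opposite directions (r of -0.83): moderate humidity replicate 4 had the most GA20ox1 of its condition and the least GA3ox1. GA20ox1 and RGA deviated together (r of 0.72). These correlations describe 12 libraries of fixed total, with depth unknown, and the pairs were picked after their values were seen.

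**Figure D5:**
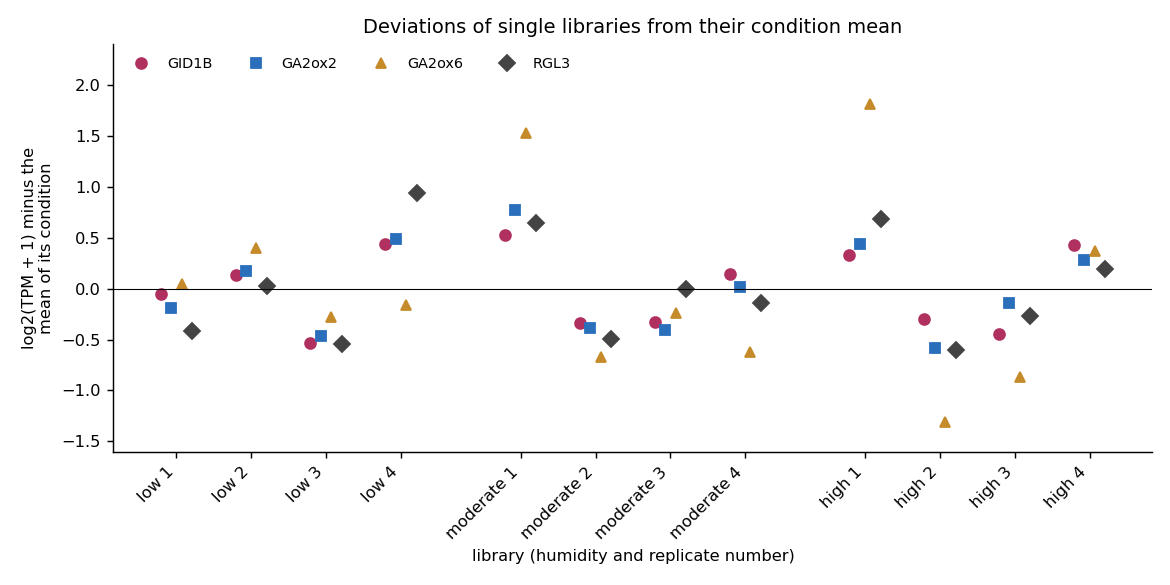
Log2(TPM + 1) of GID1B, GA2ox2, GA2ox6 and RGL3 in each library minus the mean of its condition. GID1B and GA2ox2 lie on the same side of 0 in each of the 12 libraries, and GA2ox6 stands highest in moderate humidity replicate 1 and high humidity replicate 1, the libraries in which it had 9.87 and 11.0 TPM.

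Among all tested genes, those most like each of the 9 were named by the highest Pearson r of log2(TPM + 1) over the 12 libraries, a description in which the difference between conditions takes part. For GA20ox1 they were AT4G13100, 4CL1 (AT1G51680), which encodes an enzyme of phenylpropanoid synthesis, and AS1 (AT2G37630), a leaf development factor, with r of 0.97, 0.96 and 0.96. For GA2ox1 they were AT1G77280, AT4G09500 and AT1G21670, each with r of 0.98. GA3ox1 was followed most closely by P5CR (AT5G14800), of proline synthesis, RD19 (AT4G39090), a drought-induced protease gene, and AT1G17232, with r of 0.94, 0.94 and 0.94.

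GA2ox2 was closest to PP2-A5 (AT1G65390), AT5G06990 and WRKY18 (AT4G31800), a transcription factor gene of defence, with r of 0.97, 0.95 and 0.94. GA2ox6 was closest to UGD3 (AT5G15490), a UDP-glucose dehydrogenase gene, AT5G16360 and AT5G62360, with r of 0.95, 0.93 and 0.93. The receptors each had their own nearest genes: APE2 (AT5G46110), AT1G21780 and SWI2 (AT1G03750) for GID1A (r of 0.93, 0.90 and 0.90), PGDH (AT1G17745), FAF4 (AT3G06020) and AT4G25433 for GID1B (r of 0.95, 0.94 and 0.93), and AT3G29180, AT2G36500 and AT5G63190 for GID1C (r of 0.97, 0.96 and 0.95). For RGA they were TRXF1 (AT3G02730), AT3G13275 and AAO2 (AT3G43600), with r of 0.93, 0.91 and 0.91. None of the 9 was among the 3 nearest genes of another by these values. By deviations from the condition means, GA2ox2 was the nearest of all tested genes to GID1B (r of 0.92). The reverse did not hold: AT5G06990, PP2-A5 and WRKY18 were nearer to GA2ox2 (r of 0.96, 0.95 and 0.93).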

How the data were processed

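Leaf RNA of 12 libraries (3 conditions, 4 replicates each) was read as paired ends. The submitters' processing notes list fastp, HISAT2 and RSEM and the build TAIR10; the sources used here give no version, role or setting. The table's title speaks of raw counts, but its 12 columns hold 2 decimals and sum to 998920 to 999399, so the deposited values were read as TPM that the authors computed. TPM keeps no depth, so depth is unknown, no counting interval is given, and a change in abundant transcripts moves all other values. Strand handling and reads shared between close paralogs are not given, so values of near-identical genes are uncertain. The authors' 3 columns of means were not used, and no 2 libraries were identical.

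Genes with at least 1 TPM in at least 4 libraries (17368) were tested on the scale log2(TPM + 1) by limma 3.58.1 (R 4.3.3), with 1 mean per condition over all 12 libraries (9 residual degrees of freedom), intensity trend, robust moderation and Benjamini-Hochberg adjustment at 0.05. Alternatives were another pseudocount (0.1), no filter, median-of-ratios and unweighted trimmed-mean scaling, no trend or robust moderation, fits of 8 libraries, a replicate block, and leaving out each library. The 10 genes and the list of 39 were chosen with earlier results of these data known. The text names all 10 genes, every gene of the list past the threshold in a comparison and the 3 genes most like each tested gene; uncalled genes of the list were named after their values were seen. All 49 locus codes matched RefSeq's annotation (assembly TAIR10.1), used for names. Its coordinates and sequences are not printed, since the table names another build.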

Additional observations from a re-analysis of the deposited data

Results flagged for a closer look

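In 6 of 93 sets of 4 libraries (1 gene in 1 condition, with at least 1 TPM in a library), a single library stood apart from the other 3 by more than Dixon's 95% critical value for the gap over the range. About 1 in 20 sets is marked by chance. Among the 10 genes this was GA2ox6 in moderate humidity replicate 1, with 9.87 TPM against 1.36 to 2.20 TPM in the other 3 libraries. High humidity replicate 1 also had the most GA2ox6 of its condition (11.0 TPM, against 0.37 to 3.40 TPM in the others), without passing that value.

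Among the other gibberellin genes, KAO2 had 22.0 TPM in moderate humidity replicate 4, against 18.02 to 18.22 TPM in the others. RGL2 had 2.91 TPM in high humidity replicate 2, against 1.44 to 1.68 TPM. SPY had 9.10 TPM in moderate humidity replicate 2, against 7.34 to 7.60 TPM. SEC had 36.7 TPM in low humidity replicate 3, against 45.6 to 47.1 TPM, and GASA1 had 295 TPM in low humidity replicate 4, against 480.5 to 511.6 TPM.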

How the results depend on the processing

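Under all 19 alternatives, GA20ox1 and GA2ox1 were called lower at high humidity in both comparisons, and GA3ox1 was called lower against low humidity. Counts for high against moderate humidity moved with scaling: 1981 genes higher and 5938 lower in the deposited values, 3213 and 2604 under median-of-ratios scaling, and 3138 and 2706 after trimmed-mean scaling, because scaling moves the median gene from a log2 fold change of -0.22 to -0.02. Of the 10 genes 2 were then lower after median-of-ratios scaling, and with the replicate block 1 (GA2ox2) was higher; leaving out 1 library gave 0 to 1 higher.

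For low against moderate humidity, 77 genes were higher and 40 lower; the counts were 46 and 13 with no filter, 140 and 8 with median-of-ratios scaling, 139 and 9 with trimmed-mean scaling, 38 and 6 with 8 libraries, and 25 and 1 with the replicate block, and 24 were lower without trend and robust moderation. Leaving out 1 library gave 18 to 392 higher and 1 to 5229 lower, the highest without low humidity replicate 1. Of the 10 genes 1, GA3ox1, was higher under either scaling, and 0 to 1 when 1 library was left out; of the 22 other genes 1 was higher under either scaling, and 0 to 2 were higher and 0 to 4 lower when 1 library was left out. For high against low humidity, the 1 higher gene of the 10 (RGA) was lost, leaving 0, under either scaling and with the replicate block, and 0 to 1 remained when 1 library was left out.

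Some uncalled log2 fold changes turned sign. With median-of-ratios and trimmed-mean scaling, RGA became 0.23 and 0.22 at high against moderate humidity, and at low against moderate humidity GA2ox1 became 0.12 and 0.12, GA2ox2 0.091 and 0.090, GID1A 0.035 and 0.034, and GID1C 0.065 and 0.063. GA2ox6 became 0.0062 with median-of-ratios scaling at high against moderate humidity. Leaving out 1 library gave -0.75 to 0.36 for GA2ox6 and -0.10 to 0.081 for RGA at high against moderate humidity, and -0.16 to 0.88 for GA2ox6 at high against low humidity. At low against moderate humidity it gave -0.12 to 0.22 for GA20ox1, -0.13 to 0.10 for GA2ox1, -0.18 to 0.24 for GA2ox2, -0.10 to 0.23 for GID1B and -0.22 to 0.017 for GID1C. The causes were not tested.

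No label says whether the replicate numbers pair the libraries. Deviations of same-numbered libraries correlated with r of -0.32 to 0.24, above 0.1 in 4 of 12 pairs. Those of different numbers correlated with r of -0.26 to 0.42, above 0.1 in 11 of 36 pairs. Since the ranges overlap, these values cannot tell whether libraries of the same number shared a day or chamber run. Low TPM values, such as those of GA2ox1 at high humidity, rest on an unknown number of reads.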
